A study of Mus musculus with 12 samples.

Results

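The genes described here encode translation initiation factors, whose mouse symbols begin with Eif, translation elongation factors, whose symbols begin with Eef, and the kinases, binding proteins and methyltransferases named after them. Members were taken by symbol (Eif or Eef followed by a digit, without the interferon-induced kinase gene Eif2ak2), with the brightest probe set for each symbol, and numbered 60 of the 19945 genes tested. Of these, 8 had more than 1 probe set, and 10 further probe sets that name an Eif or Eef gene together with another symbol were not used. Among members with 1 probe set the identifiers of the probe sets ran by chromosome. For Eif2s2, Eif4a1, Eif4e and Eif5a the brightest probe set fell outside the range of the gene's own chromosome. Whether it measures that gene was not tested. Genes without a probe set of their own, such as Eif2s1, Eif4g1, Eif1, Eif3g and Eef1g, were not analysed here. The 60 genes were described across mouse bone marrow-derived macrophages of 2 Hdac3 genotypes, each measured without and with lipopolysaccharide (LPS, an outer membrane component of Gram-negative bacteria that activates TLR4).

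Affymetrix whole-transcript gene arrays were hybridised with RNA of these cells, with 3 arrays in each of 4 groups and a log2 signal for each probe set. Marrow came from C57BL/6 mice and was cultured in medium conditioned by L929 cells, which secrete the macrophage growth factor CSF1, up to day 7. The groups were Hdac3 +/- cells without treatment, Hdac3 +/- cells given 100 ng/ml of LPS for 4 h, Hdac3 -/- cells without treatment, and Hdac3 -/- cells given the same LPS dose for the same time. The Hdac3 +/- cells, which the labels call wild type, carried 1 Hdac3 allele, so no group here had both. The sources used here do not say how, or in which cells, Hdac3 was deleted. Nothing in the labels says that the arrays of a group came from separate animals or cultures, so a p-value here reflects only the spread between the arrays used, which may be technical. The Hdac3 +/- groups are in part an exception. Sex-linked signal set replicate 1 apart in both, so not all arrays of such a group came from the same animal. Precision is limited by the small number of arrays. Arrays are named by group and replicate number, as in +/- LPS 1.

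Initiation factors bring the initiator tRNA, the small ribosomal subunit and the capped mRNA together, and elongation factors then deliver aminoacyl-tRNA and move the ribosome along the message. Initiation is controlled mainly at the eIF2 step and at the cap-binding step. Kinases that phosphorylate the alpha subunit of eIF2 slow general initiation under stress, and the eIF4E-binding proteins hold back the cap-binding factor eIF4E when the kinase mTORC1 is inactive. In macrophages, LPS signalling sets off a burst of cytokine and effector protein synthesis, for which both steps are known to be regulated.

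Hdac3, the histone deacetylase of the NCoR/SMRT corepressor complexes, had a log2 signal between 8.66 and 9.42 in the 6 Hdac3 +/- arrays and between 6.91 and 7.52 in the 6 Hdac3 -/- arrays. The sources used here do not say whether its probes lie inside the deleted stretch, and probes outside it would check nothing. Of 8 macrophage markers 7 were measured, and their group means lay above the median gene in every group. Their signals, summed before taking log2 and so led by the brightest markers, gave between 14.7 and 15.1 on every array. With LPS this sum went from between 14.98 and 15.10 to between 14.83 and 14.87 on Hdac3 +/- arrays. On Hdac3 -/- arrays it went from between 14.92 and 15.05 to between 14.73 and 14.86. The lowest marker mean was 8.90 without and 6.89 with LPS in Hdac3 +/- cells, and 9.20 and 6.58 in Hdac3 -/- cells. The 4 measured B cell markers, the 5 dendritic cell markers and the 2 measured erythroid markers lay below the median gene in every group, as did 3 or 4 of the 5 measured T cell markers and 2 or 3 of the 5 fibroblast markers. The summed level of the 5 T cell markers, of which Cd28 was the brightest, went from between 7.49 and 8.82 to between 6.89 and 7.46 with LPS on Hdac3 +/- arrays, and from between 7.98 and 8.28 to between 6.86 and 7.23 on Hdac3 -/- arrays. That of 7 neutrophil markers lay between 7.50 and 7.89 in untreated and between 7.62 and 9.84 in LPS-treated Hdac3 +/- arrays, and between 7.31 and 8.69 in untreated and between 8.99 and 10.4 in LPS-treated Hdac3 -/- arrays. In the LPS groups 6 of the 7 were below the median gene, and the part of these 2 marker lists in the results was not tested. In such bulk samples fewer cells of a type and less RNA per cell cannot be told apart. The arrays +/- untreated 1 and +/- LPS 1 stood apart in carrying Y-linked signal, as described with Eif2s3y.

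With LPS in Hdac3 +/- macrophages the largest falls among the 60 genes were those of Eif2ak3 (-2.09) and Eif2ak4 (-1.34), both kinases of eIF2, of the methyltransferase gene Eef1aknmt (-1.29) and of the eEF2 kinase gene Eef2k (-1.21). Of the 60 genes 16 changed (adjusted p under 0.05 in limma with Benjamini-Hochberg adjustment over 19945 genes), 14 of them lower and 2 higher (beside 15.5% of all genes lower and 9.59% higher). Among the 55 genes at or above the median signal 23.6% were lower, beside 28.3% of all genes there. In either direction 26.7% of the genes described here changed, beside 25.1% of all genes and 40.0% of the genes at or above the median signal. The share that changed was thus near that of all genes and not above that of the brighter genes. The median log2 difference was -0.16 for the 60 genes, 0.08 over all genes and -0.21 over those at or above the median signal. With cyclic loess normalization the split was 9 lower and 4 higher. The count was 8 without +/- untreated 3, and 10 without +/- LPS 2 or without +/- LPS 3.

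Macrophages without Hdac3 changed in 6 of the 60 genes with LPS, 4 lower and 2 higher (beside 5.18% of all genes lower and 3.69% higher). This is 10.0% beside 8.87% of all genes, again near the background. The median difference was 0.06, and 0.02 over all genes. Eif2ak3, Eef1aknmt and Eif4ebp2 fell and Eif6 rose in both genotypes. The differences in each genotype come from separate arrays. Their SE was estimated from the arrays of all groups together, so the tests in both genotypes are not independent. Eif4enif1 fell and Eif4ebp1 rose in the Hdac3 -/- cells, where the same genes had adjusted p = 0.327 and 0.897 in Hdac3 +/- cells in limma. Quantile and cyclic loess normalization each gave 3 lower and 3 higher. The count was 4 without -/- untreated 3 or without -/- LPS 2.

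Between the genotypes, untreated cells differed in 1 of the 60 genes, Eef1a2, and cells after LPS in 20. The single untreated call is 1.67%, beside 2.66% of all genes. After LPS 18 genes (30.0%) were higher and 2 lower in Hdac3 -/- cells, beside 9.69% of all genes higher and 5.99% lower and 17.7% higher among those at or above the median signal. In either direction this is 33.3%, beside 15.7% of all genes and 26.9% of those at or above the median signal. Of the 60 differences after LPS 53 were above 0, beside 45.1% of all genes and 63.1% of those at or above the median signal. Their median was 0.39, against -0.04 over all genes and 0.15 over genes at or above the median signal. The spread of signals within an array moved with this comparison. The interquartile range of log2 signals over genes was 3.45, 3.10 and 3.15 on the Hdac3 +/- LPS arrays and 3.47, 3.34 and 3.66 on the Hdac3 -/- LPS arrays.  With quantile normalization, which gives every array the same distribution, 14 genes were higher and 2 lower and the median was 0.33, and with cyclic loess 13 were higher and 4 lower with a median of 0.28. The count was 10 without +/- LPS 2, 9 without +/- LPS 3, 9 without -/- LPS 1 and 7 without -/- LPS 3.

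**Figure D1:**
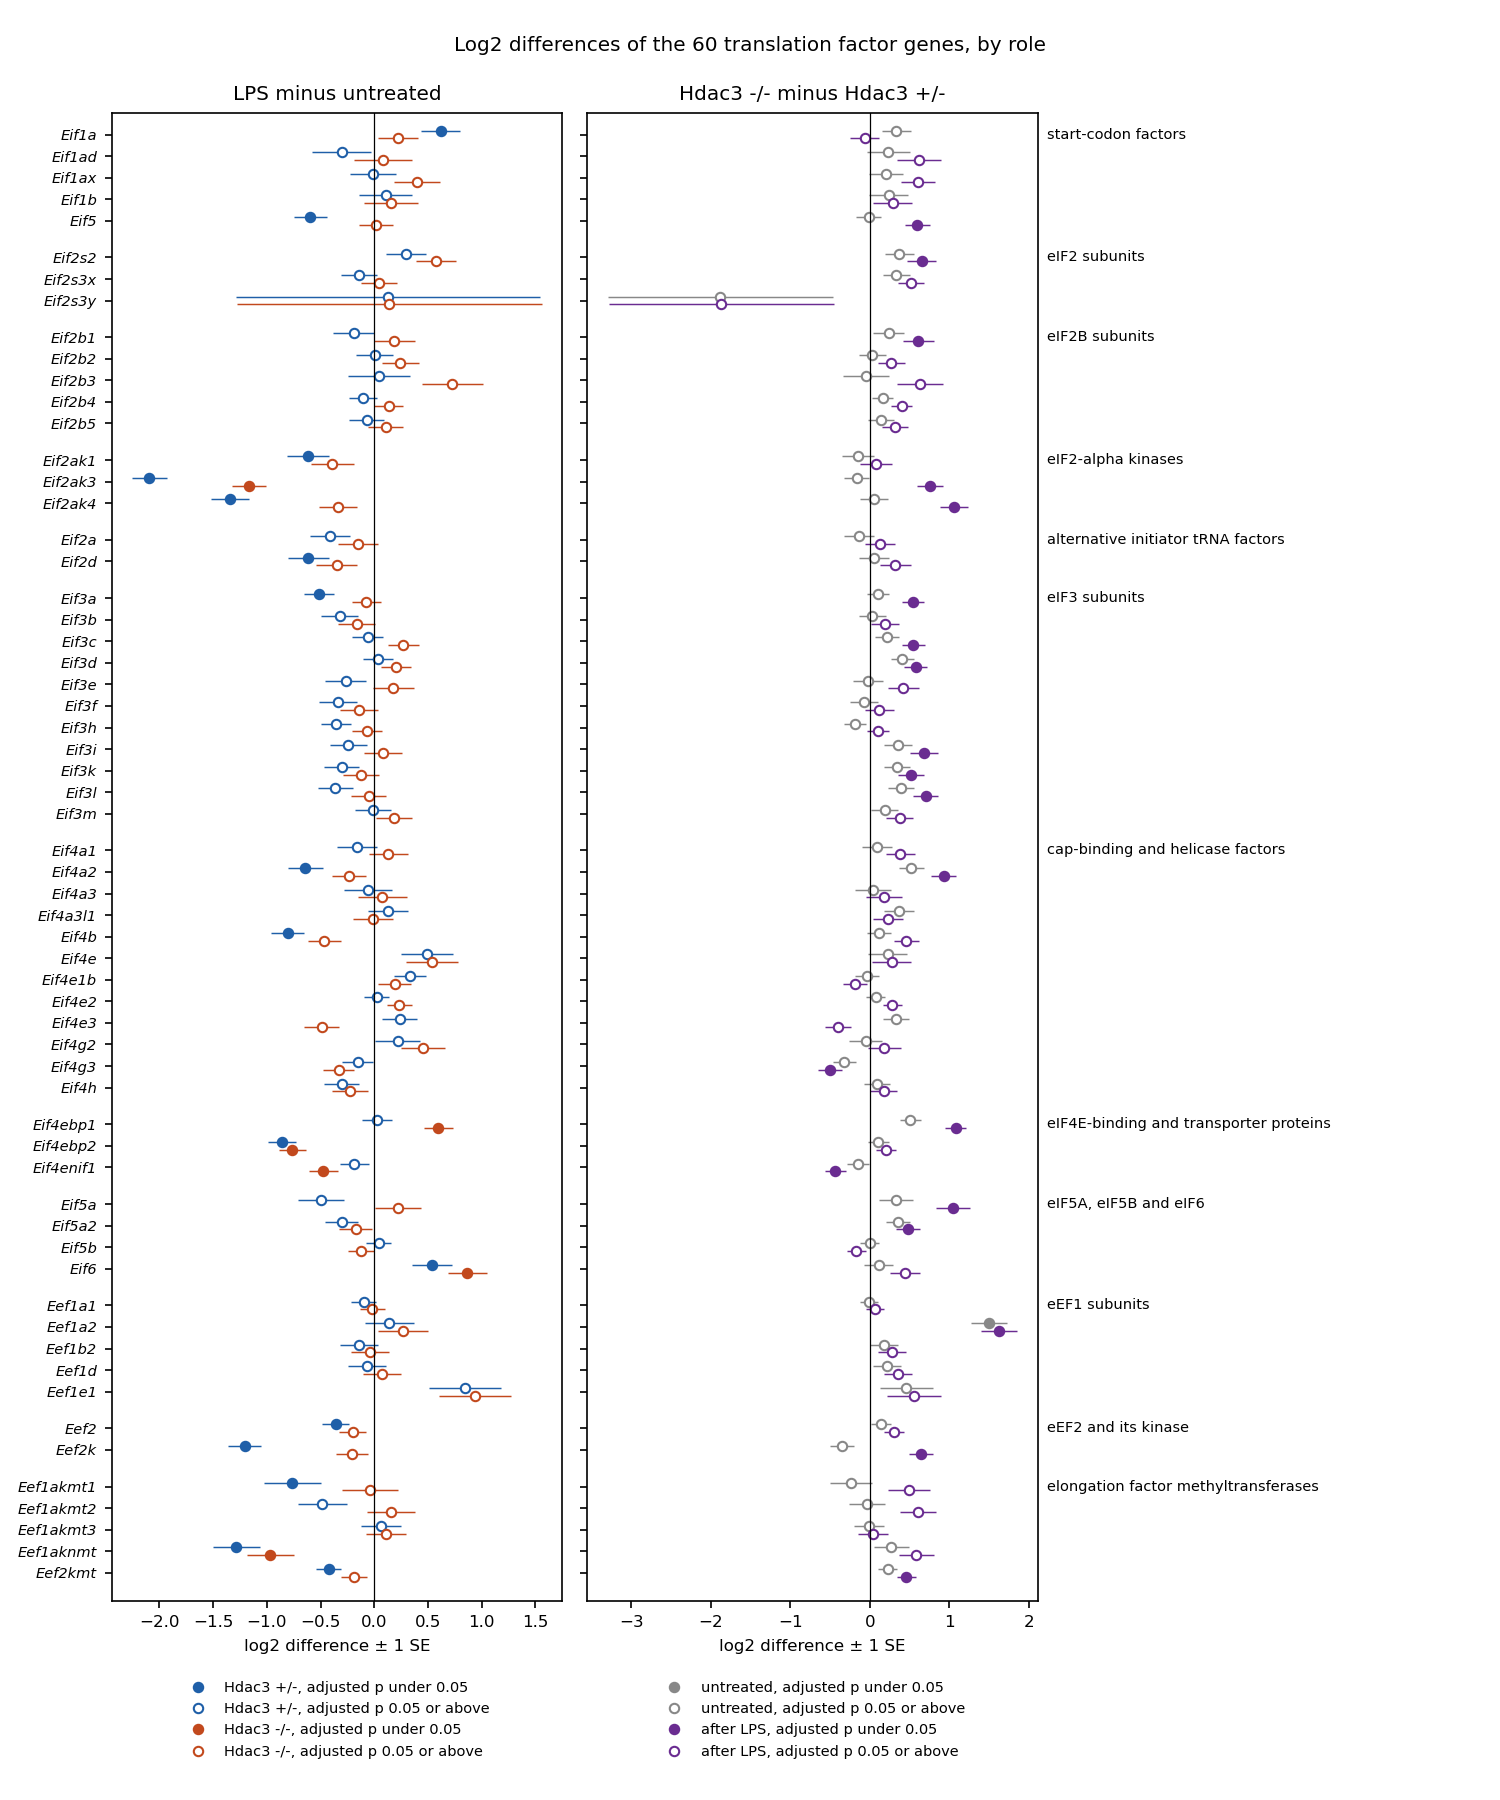
Log2 differences of the 60 genes with 1 SE of the limma model, 3 arrays a group, grouped by role; the left panel gives LPS minus untreated in each genotype and the right panel Hdac3 -/- minus Hdac3 +/- without and with LPS, and filled points mark an adjusted p under 0.05. In the left panel 14 of 16 filled Hdac3 +/- points lie below 0, and in the right panel 18 of 20 filled points after LPS lie above 0.

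The 3 genes of eIF2 alpha kinases described here all fell with LPS in Hdac3 +/- cells. In that comparison 15.5% of all genes and 28.3% of those at or above the median signal were lower. Eif2ak2 (PKR), the interferon-induced kinase, was measured and is left out by the rule. Eif2ak3 encodes PERK, the kinase that responds to unfolded protein in the endoplasmic reticulum. Its log2 signal was 7.98, 8.28 and 8.08 in untreated Hdac3 +/- arrays and 6.23, 6.18 and 5.66 after LPS. In Hdac3 -/- arrays it was 8.07, 7.83 and 7.94 without and 6.75, 6.68 and 6.91 with LPS. The untreated groups overlapped, whereas every LPS-treated array was below every untreated one and the Hdac3 -/- arrays lay above the Hdac3 +/- arrays after LPS. Eif2ak3 was 4.27-fold lower after LPS in Hdac3 +/- cells (log2 difference -2.09 ± 0.161, SE of the model, n = 3 arrays a group here and below; adjusted p = 8.27e-07 in limma) and 2.24-fold lower in Hdac3 -/- cells (-1.17 ± 0.161, adjusted p = 0.000349 in limma). After LPS it was higher in Hdac3 -/- than in Hdac3 +/- cells by 0.76 (adjusted p = 0.00594 in limma). The difference between both LPS responses was 0.93 ± 0.228, with adjusted p = 0.0727 in limma.

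Eif2ak4 encodes GCN2, the kinase that senses uncharged tRNA when amino acids run short. Hdac3 +/- arrays had log2 signals of 6.96, 6.88 and 7.10 before and 5.94, 5.26 and 5.70 after LPS, and Hdac3 -/- arrays had 6.89, 7.30 and 6.90 before and 6.56, 6.73 and 6.78 after it. The LPS-treated Hdac3 +/- arrays were lower than all others. Eif2ak4 fell by 1.34 (SE 0.176, adjusted p = 9.24e-05 in limma) in Hdac3 +/- cells. Its difference in Hdac3 -/- cells was -0.34 (adjusted p = 0.32 in limma). After LPS the genotypes differed by 1.06 ± 0.176 (adjusted p = 0.00117 in limma), and the difference of the LPS responses was 1.00 ± 0.249 with adjusted p = 0.0763 in limma. On Hdac3 +/- arrays Eif2ak1 was at 7.99, 8.39 and 8.31 before and 7.66, 7.74 and 7.44 after LPS, and on Hdac3 -/- arrays at 8.16, 7.73 and 8.35 and then 7.97, 7.30 and 7.80. Treated and untreated arrays overlapped in Hdac3 -/- cells and not in Hdac3 +/- cells. Eif2ak1, the haem-regulated kinase HRI, fell by 0.62 in Hdac3 +/- cells (adjusted p = 0.0352 in limma). That call was lost without any of the 3 LPS-treated Hdac3 +/- arrays, +/- untreated 2 or +/- untreated 3, with adjusted p between 0.051 and 0.123, and with array weights (0.0517). With quantile normalization the difference was -0.40 (adjusted p = 0.171 in limma) and with cyclic loess -0.35 (0.233). Its difference in Hdac3 -/- cells was -0.39 (adjusted p = 0.306 in limma).

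**Figure D2:**
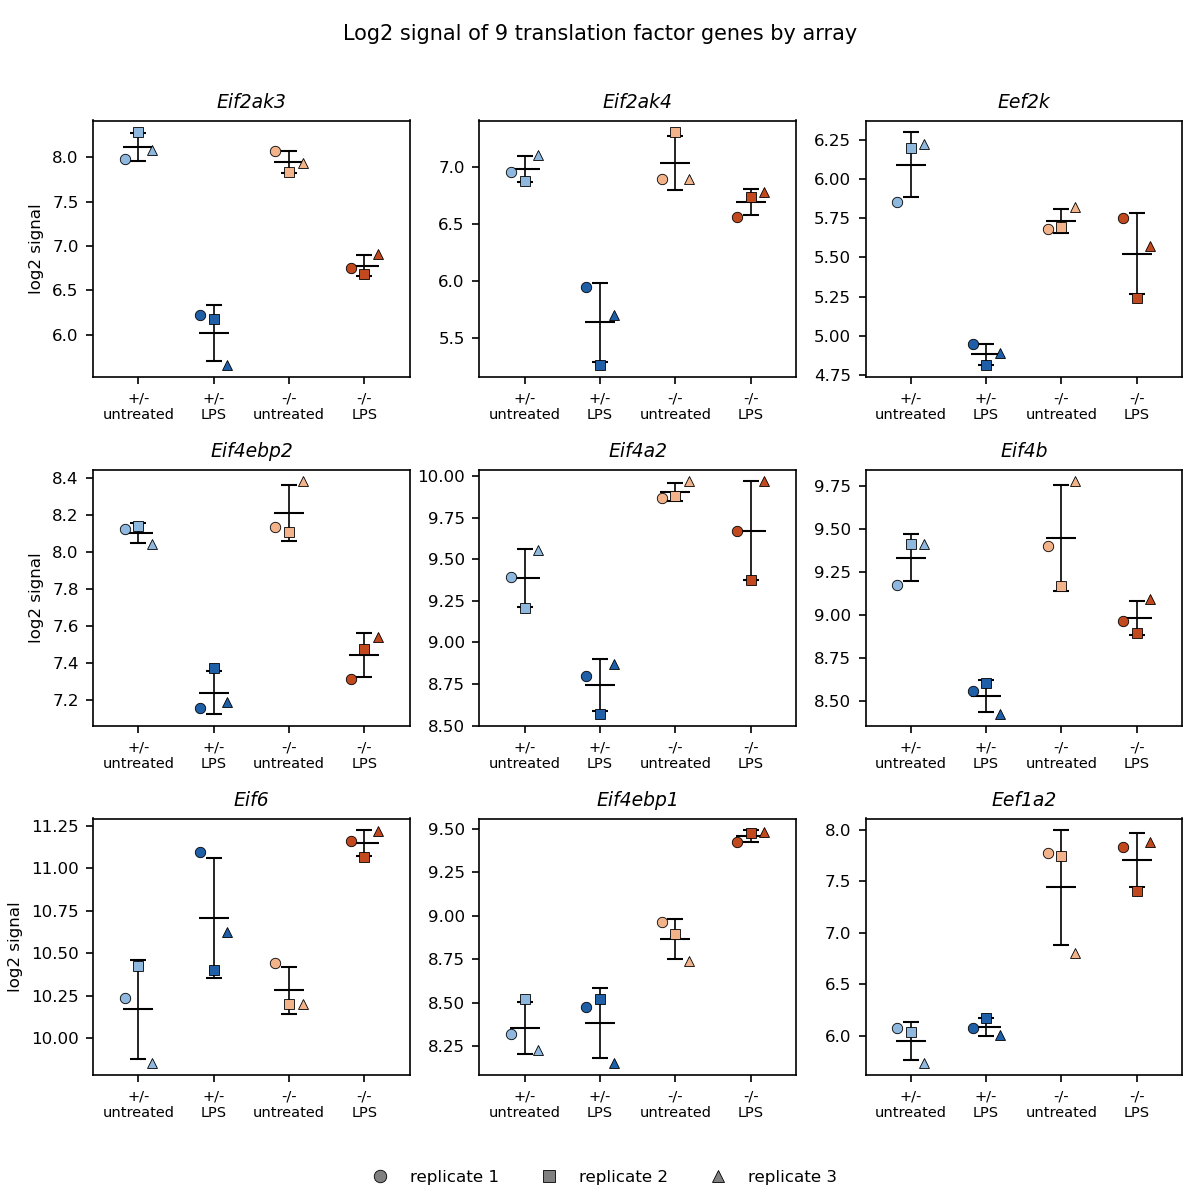
Log2 signal on each array, with the group mean and SD, for translation factor genes named in the text, by group (3 arrays each). Eif2ak3, Eif2ak4 and Eef2k are lowest on the 3 LPS-treated Hdac3 +/- arrays, and Eef1a2 lies between 6.80 and 7.88 on Hdac3 -/- arrays and between 5.73 and 6.17 on Hdac3 +/- arrays.

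The 250 bases before the RefSeq start of Eif2ak3, Eif2ak4, Eef2k, Eif4ebp2 and Eef1a2 (assembly GRCm38.p6) are printed because these genes carry the calls for LPS, genotype and their interaction that the results turn on. RefSeq promoters were matched for 47 of the 60 genes. Each is written 5′ to 3′ on the strand of its gene, and capitals mark matches to the motifs searched on both strands, so that a match on the other strand appears as its reverse complement.
Eif2ak3, chr6:70844265-70844514, plus strand: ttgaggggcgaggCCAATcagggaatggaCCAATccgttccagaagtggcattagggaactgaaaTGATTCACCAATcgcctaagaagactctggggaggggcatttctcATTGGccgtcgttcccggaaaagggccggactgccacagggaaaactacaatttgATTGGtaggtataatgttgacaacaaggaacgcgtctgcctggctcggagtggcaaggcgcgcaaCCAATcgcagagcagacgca
Eif2ak4, chr2:118388367-118388616, plus strand: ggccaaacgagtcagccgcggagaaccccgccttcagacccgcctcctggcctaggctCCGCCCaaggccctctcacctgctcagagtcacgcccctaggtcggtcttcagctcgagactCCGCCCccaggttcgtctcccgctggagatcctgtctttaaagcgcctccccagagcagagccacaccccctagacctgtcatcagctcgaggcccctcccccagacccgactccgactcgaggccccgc
Eef2k, chr7:120842581-120842830, plus strand: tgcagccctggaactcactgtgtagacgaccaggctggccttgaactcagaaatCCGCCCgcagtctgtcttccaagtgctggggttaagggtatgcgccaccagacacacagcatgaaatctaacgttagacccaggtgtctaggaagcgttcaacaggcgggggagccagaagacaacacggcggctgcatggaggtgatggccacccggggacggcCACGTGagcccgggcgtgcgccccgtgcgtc
Eif4ebp2, chr10:61452670-61452919, minus strand: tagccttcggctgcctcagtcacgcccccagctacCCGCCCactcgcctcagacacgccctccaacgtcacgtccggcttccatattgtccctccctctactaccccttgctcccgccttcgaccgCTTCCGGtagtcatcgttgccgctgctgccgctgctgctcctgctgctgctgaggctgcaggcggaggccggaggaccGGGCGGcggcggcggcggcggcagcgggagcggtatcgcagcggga
Eef1a2, chr2:181157016-181157265, minus strand: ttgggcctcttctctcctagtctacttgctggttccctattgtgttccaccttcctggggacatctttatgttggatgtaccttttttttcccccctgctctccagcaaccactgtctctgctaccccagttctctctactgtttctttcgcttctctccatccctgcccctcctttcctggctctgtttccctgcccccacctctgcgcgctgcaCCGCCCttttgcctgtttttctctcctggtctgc
The 10 motifs were the GC box GGGCGG, the CCAAT box, the ETS core CCGGAAG, the E-box CACGTG, the cAMP response element TGACGTCA, the C/EBP-ATF element TGATGNAA, the AP-1 site TGANTCA, the antioxidant response element core TGACNNNGC, the NF-kB site and the interferon-stimulated response element. Matches of the AP-1 site and of the antioxidant core can overlap, since both can begin with the same letters. The Eif2ak3 window held 6 CCAAT boxes, and an AP-1 match from 185 to 179 bases before the start, directly next to the CCAAT box from 178 to 174. The Eif2ak4 window held 2 GC boxes, that of Eef2k a GC box and an E-box from 31 to 26 bases before the start, that of Eif4ebp2 2 GC boxes and an ETS core, and that of Eef1a2 1 GC box. Over 27025 promoters of this length, 32.9% held a GC box, 34.5% a CCAAT box, 7.05% an ETS core, 6.05% an E-box and 6.87% an AP-1 site. Among the 47 genes described here the shares were 70.2%, 29.8%, 19.1%, 19.1% and 6.38%. The NF-kB site was found in 4.0% of all and 2.13% of these promoters, and the interferon-stimulated element in 3.04% and 2.13%. The cAMP response element was found in 1.62% of all promoters and in 0 of these 47, the C/EBP-ATF element in 3.53% and 2.13%, and the antioxidant core in 10.1% and 14.9%. The 27025 promoters were not chosen by signal, whereas 55 of the 60 genes described here lie above the median gene. No share was taken for promoters of brighter genes alone. These matches describe letters only and show no binding.

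The subunits of eIF2, which carries the initiator tRNA, and of eIF2B, its exchange factor, showed no call with LPS in either genotype. After LPS 1 of 3 eIF2 genes and 1 of 5 eIF2B genes were higher in Hdac3 -/- cells. In that comparison 9.69% of all genes and 17.7% of those at or above the median signal were higher. The beta subunit gene Eif2s2 was higher by 0.65 ± 0.186 (adjusted p = 0.0302 in limma), and its other probe set gave 0.37 (adjusted p = 0.294 in limma). By its identifier the other probe set falls among those of chromosome 2, where Eif2s2 lies, and the brightest, which carries the call, does not. The call was lost without +/- LPS 2, +/- LPS 3, -/- LPS 1 or -/- LPS 3 (adjusted p between 0.0744 and 0.133), and over all alternatives in 8 of 23. Eif2b1 was higher by 0.61 (adjusted p = 0.0454 in limma), a call lost without any of 7 arrays, with adjusted p between 0.0506 and 0.219, and in 12 of 23 alternatives in all, among them quantile normalization (0.0673) and cyclic loess (0.124). The arrays of Eif2b5 were at 8.16, 7.95 and 7.71 (Hdac3 +/-), 8.09, 7.70 and 7.83 (Hdac3 +/- with LPS), 8.13, 8.11 and 8.01 (Hdac3 -/-) and 8.40, 7.91 and 8.27 (Hdac3 -/- with LPS). These groups overlapped in every comparison. Eif2b5, the gene of the catalytic subunit, differed by 0.32 after LPS (adjusted p = 0.213 in limma) and by -0.07 with LPS in Hdac3 +/- cells. The other eIF2B genes lay between 0.27 and 0.63 in the genotype comparison after LPS.

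The gamma subunit of eIF2 is encoded by an X-linked copy, Eif2s3x, and a Y-linked copy, Eif2s3y. Eif2s3y had log2 signals of 7.76 and 7.93 on +/- untreated 1 and +/- LPS 1 and lay between 2.20 and 2.47 on the other 10 arrays. The Y-linked genes Uty (7.62 and 7.22) and Kdm5d (6.43 and 6.14) were high on the same arrays, where the female-specific Xist was at 3.93 and 3.20. On the other 10 arrays Uty lay between 2.54 and 3.24, Kdm5d between 2.76 and 3.57 and Xist between 9.67 and 10.97. Replicate 1 of both Hdac3 +/- groups thus differed in sex-linked signal from the remaining arrays, and no Hdac3 -/- array was like it. The genotype differences of Eif2s3y, -1.88 ± 1.42 untreated and -1.87 after LPS (adjusted p = 0.689 and 0.422 in limma), rest on those arrays. Eif2s3x was at 9.63, 10.02 and 10.28 before and 9.81, 9.78 and 9.92 after LPS on Hdac3 +/- arrays, against 10.27, 10.50 and 10.15 and then 10.34, 10.18 and 10.53 in Hdac3 -/- arrays. Its difference after LPS was 0.52 ± 0.167 (adjusted p = 0.0526 in limma). When both arrays with Y-linked signal were left out, an alternative chosen after seeing the data, 16 of the 60 genes changed with LPS in Hdac3 +/- cells, 7 in Hdac3 -/- cells, 1 between untreated genotypes and 24 between genotypes after LPS.

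**Figure D3:**
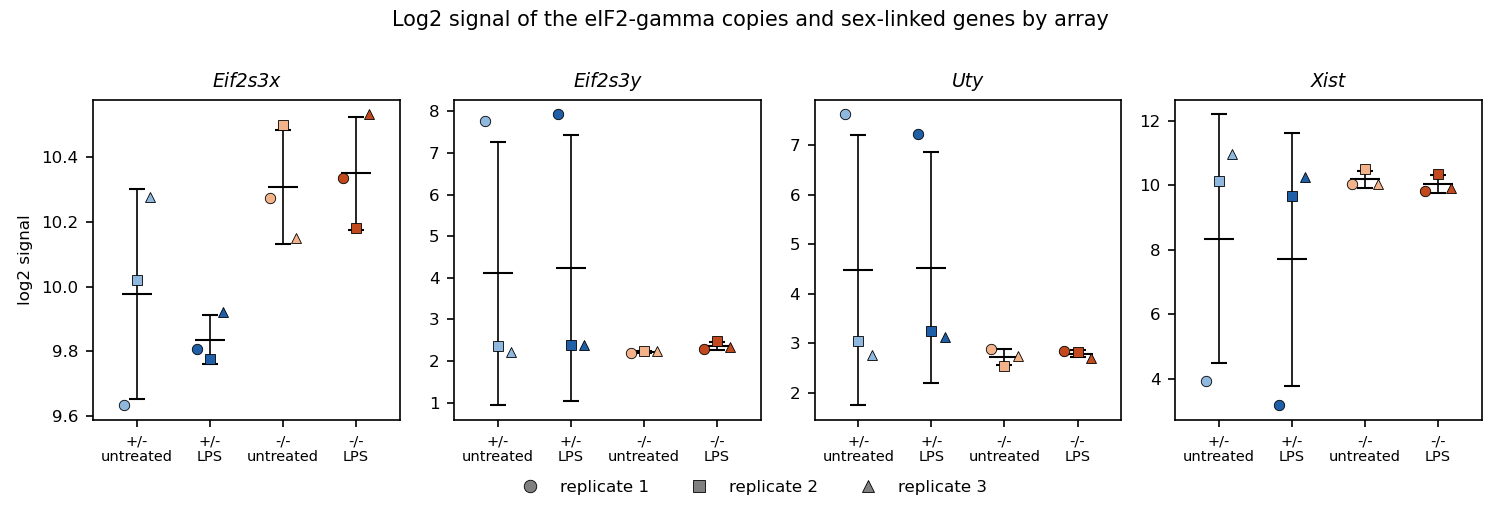
Log2 signal of Eif2s3x, Eif2s3y, Uty and Xist on each array, with the group mean and SD, by group (3 arrays each; marker shape gives the replicate number). Replicate 1 of both Hdac3 +/- groups has Eif2s3y at 7.76 and 7.93, and the other 10 arrays lie between 2.20 and 2.47.

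Among the start-codon factors, Eif5, the GTPase activator of eIF2, fell with LPS in Hdac3 +/- cells and was higher in Hdac3 -/- cells after LPS. Hdac3 +/- arrays had log2 signals of 9.65, 9.57 and 9.88 before and 9.38, 8.80 and 9.13 after LPS. It stayed between 9.53 and 9.78 on the 6 Hdac3 -/- arrays, above each LPS-treated Hdac3 +/- array. The differences were -0.60 ± 0.155 for LPS in Hdac3 +/- cells (adjusted p = 0.012 in limma) and 0.60 for the genotype after LPS (adjusted p = 0.0182 in limma); these comparisons share the LPS-treated Hdac3 +/- arrays. The first call had adjusted p = 0.0539 without +/- LPS 2, 0.0566 without +/- untreated 3 and 0.0536 on the arrays of the groups compared alone, and the other lay between 0.0519 and 0.0713 without +/- LPS 2, +/- LPS 3, -/- LPS 1 or -/- LPS 3. On Hdac3 +/- arrays Eif1a was at 7.97, 8.01 and 7.38 before and 8.57, 8.14 and 8.50 after LPS, and on Hdac3 -/- arrays at 8.22, 8.19 and 7.95 and then 8.35, 8.18 and 8.49. Every untreated Hdac3 +/- array was below every LPS-treated one. Eif1a, a gene for the scanning factor eIF1A, rose by 0.62 with LPS in Hdac3 +/- cells (adjusted p = 0.0242 in limma), a call lost without +/- LPS 1, +/- LPS 3 or +/- untreated 3 (adjusted p between 0.0645 and 0.11), on the arrays of the groups compared alone (0.0718), or without both arrays with Y-linked signal (0.0595). Eif1ax, Eif1ad and Eif1b passed the threshold in none of the comparisons. Of the factors that can deliver initiator tRNA outside eIF2, Eif2d fell by 0.61 with LPS in Hdac3 +/- cells (adjusted p = 0.0303 in limma). That call was lost without +/- LPS 2, +/- LPS 3, +/- untreated 1 or +/- untreated 3 (adjusted p between 0.0684 and 0.135), and the difference was -0.37 with quantile normalization (adjusted p = 0.154 in limma) and -0.39 with cyclic loess (0.135). The difference of Eif2a there was -0.41 (adjusted p = 0.12 in limma).

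The eIF3 complex, the scaffold that holds the small subunit to the mRNA, gave the largest count of calls of any role after LPS, with 6 genes. After LPS 6 of its 11 measured subunit genes were higher in Hdac3 -/- cells and 0 lower. Over all genes 9.69% were higher and 5.99% lower. Among those at or above the median signal, where all 11 lie, 17.7% were higher. All 11 differences were above 0 and their median was 0.52. Among genes at or above the median signal 63.1% of differences were above 0 and the median was 0.15. Eif3l was higher by 0.70 ± 0.163 (adjusted p = 0.0101 in limma), Eif3i by 0.68 (0.0182), Eif3d by 0.58 (0.0145), Eif3c by 0.55 (0.0212), Eif3a by 0.54 (0.016) and Eif3k by 0.52 (0.0464). Eif3l was at 9.45, 9.08 and 9.06 in LPS-treated Hdac3 +/- arrays and at 9.74, 9.77 and 10.18 in LPS-treated Hdac3 -/- arrays, which did not overlap. After LPS the genotypes likewise did not overlap for the other 5 genes called. Since these genes were called in the same comparison, this adds no support. Over all genes 31.8% did not overlap there, and neither did Eif3f, which was not called (adjusted p = 0.707 in limma). Eif3l was at 9.70, 9.32 and 9.67 in untreated Hdac3 +/- arrays and 9.90, 9.94 and 10.01 in untreated Hdac3 -/- arrays, a difference of 0.39 with adjusted p = 0.318 in limma. Eif3i was at 7.87, 7.52 and 7.30 in LPS-treated Hdac3 +/- arrays and 8.06, 8.20 and 8.46 in LPS-treated Hdac3 -/- arrays. These 6 calls lay close to the threshold, and without -/- LPS 3 all 6 were lost, with adjusted p from 0.0596 for Eif3l to 0.208 for Eif3k. Without +/- LPS 3 all but Eif3a were lost, with adjusted p between 0.0506 and 0.152. Without +/- LPS 2 Eif3a, Eif3c, Eif3d and Eif3i were lost (0.0502 to 0.0786), and without -/- LPS 1 Eif3c, Eif3d and Eif3k (0.0538 to 0.126). Eif3k was lost in 13 of 23 alternatives in all, and its difference was 0.34 with cyclic loess (adjusted p = 0.163 in limma). On the arrays of the groups compared alone Eif3c had adjusted p = 0.057 in limma. The other 5 subunit genes lay between 0.10 and 0.42, with Eif3h, Eif3f and Eif3b at 0.10, 0.12 and 0.19.

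With LPS in Hdac3 +/- cells 1 of the 11 eIF3 genes fell, and 10 had differences below 0, with a median of -0.30. Among genes at or above the median signal 28.3% fell and 35.2% had differences above 0, with a median of -0.21. Eif3a, the largest scaffold subunit, was at 10.39, 10.28 and 10.65 without and 10.03, 9.80 and 9.94 with LPS, and stayed between 10.42 and 10.73 in Hdac3 -/- arrays. Its fall was 0.52 on the log2 scale (SE 0.137, adjusted p = 0.0138 in limma), and the call was lost without +/- LPS 2 (0.0533) or +/- untreated 3 (0.0663), and on the arrays of the groups compared alone (0.0565). In Hdac3 -/- cells 0 of the 11 passed the threshold with LPS in limma, 0 had an unadjusted p under 0.05, and their differences lay between -0.16 and 0.27.

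**Figure D4:**
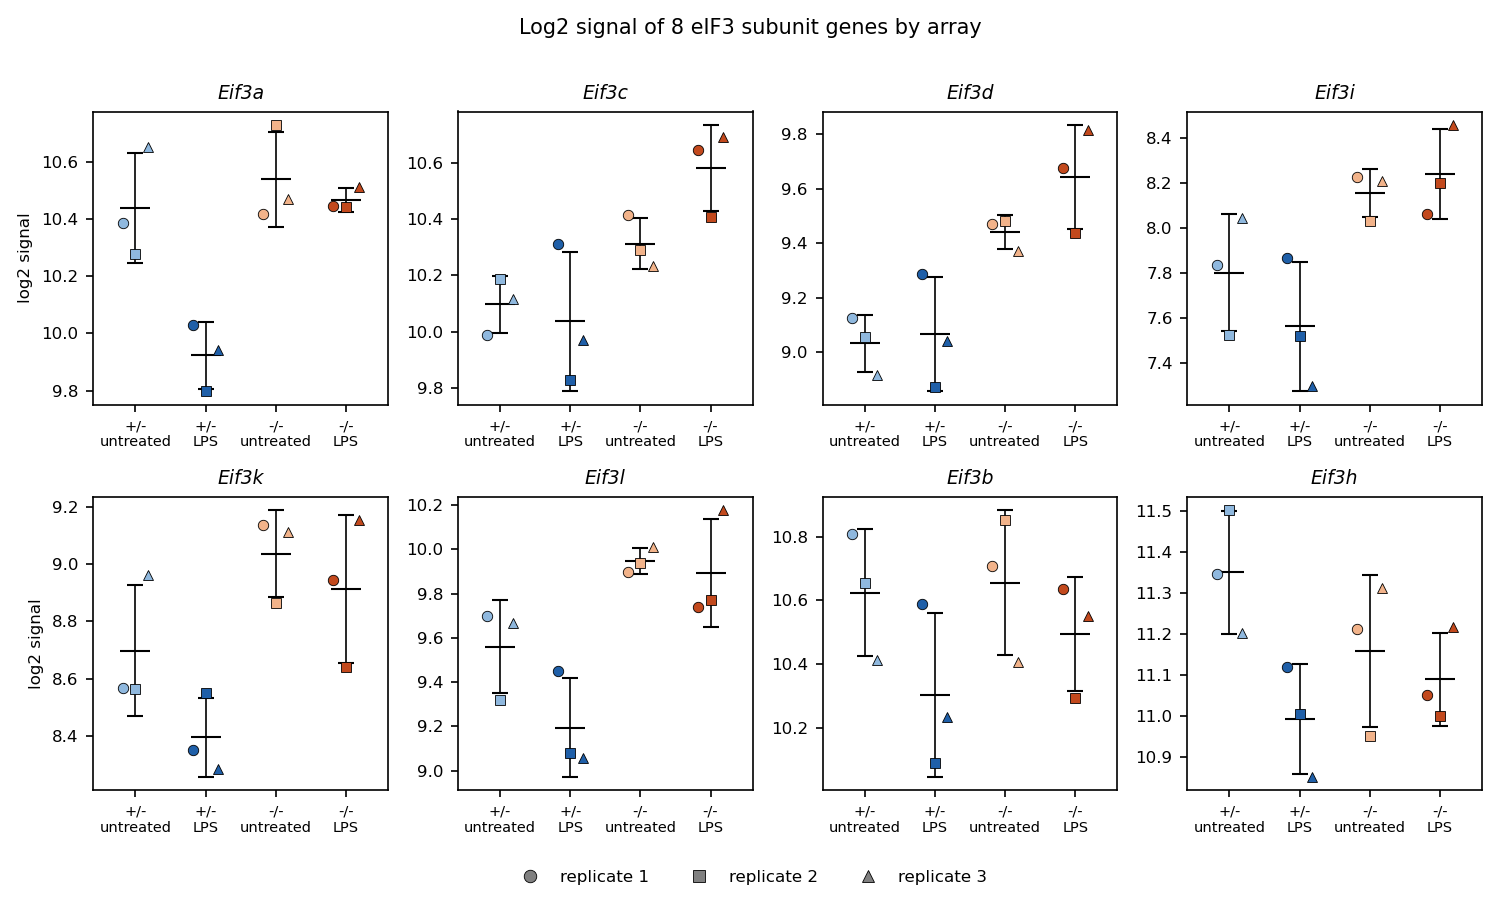
Log2 signal of 8 eIF3 subunit genes on each array, with the group mean and SD, by group (3 arrays each; marker shape gives the replicate number). For Eif3a, Eif3c, Eif3d, Eif3i, Eif3k and Eif3l each LPS-treated Hdac3 -/- array lies above each LPS-treated Hdac3 +/- array, whereas Eif3b and Eif3h, with differences of 0.19 and 0.10, overlap.

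At the cap-binding step, the helicase gene Eif4a2 and its cofactor gene Eif4b fell with LPS in Hdac3 +/- cells, 2 of 12 genes of this role. This count was not above the background, where 15.5% of all genes and 28.3% of those at or above the median signal were lower. Eif4a2 was at 9.39, 9.21 and 9.56 without and 8.80, 8.57 and 8.87 with LPS in Hdac3 +/- arrays, and at 9.87, 9.88 and 9.97 and then 9.67, 9.37 and 9.97 in Hdac3 -/- arrays. In both states the Hdac3 -/- arrays lay above the Hdac3 +/- arrays. The LPS difference in Hdac3 +/- cells was -0.64 ± 0.159 (adjusted p = 0.00943 in limma), and the genotype difference was 0.52 untreated (adjusted p = 0.124 in limma) and 0.93 ± 0.159 after LPS (adjusted p = 0.00148 in limma). Eif4b, which stimulates the helicase, was at 9.18, 9.41 and 9.41 without and 8.56, 8.60 and 8.42 with LPS in Hdac3 +/- arrays, a fall of 0.81 (SE 0.155, adjusted p = 0.00177 in limma). The Hdac3 -/- cells gave -0.46 (adjusted p = 0.0869 in limma).

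Eif4e, the gene of the cap-binding protein itself, was variable between untreated arrays. The arrays of Eif4e were at 10.23, 9.35 and 9.67 (Hdac3 +/-), 10.22, 10.39 and 10.11 (Hdac3 +/- with LPS), 10.13, 10.35 and 9.45 (Hdac3 -/-) and 10.49, 10.33 and 10.72 (Hdac3 -/- with LPS). Treated and untreated arrays overlapped in both genotypes. Its LPS differences were 0.49 and 0.54 in Hdac3 +/- and Hdac3 -/- cells (adjusted p = 0.155 and 0.228 in limma). Of its 3 probe sets 1 of the dimmer ones passed the threshold in Hdac3 +/- cells, at 0.56 (adjusted p = 0.0162 in limma). By its identifier the brightest falls outside the range of chromosome 3, where Eif4e lies. On Hdac3 +/- arrays Eif4a1 was at 12.34, 11.96 and 12.25 before and 12.31, 11.68 and 12.07 after LPS, and on Hdac3 -/- arrays at 12.27, 12.55 and 11.99 and then 12.31, 12.39 and 12.51. Eif4a1, the main helicase gene, differed by -0.16 and 0.13 with LPS in Hdac3 +/- and Hdac3 -/- cells and by 0.38 between genotypes after LPS (adjusted p = 0.187 in limma). Eif4g3, a paralog of the scaffold eIF4G, was 1 of the 2 members lower in Hdac3 -/- cells after LPS, by 0.50 on the log2 scale (-0.50 ± 0.147, adjusted p = 0.0338 in limma). The arrays of Eif4g3 were at 8.13, 8.61 and 8.68 (Hdac3 +/-), 8.20, 8.36 and 8.40 (Hdac3 +/- with LPS), 8.09, 8.15 and 8.21 (Hdac3 -/-) and 7.89, 7.78 and 7.78 (Hdac3 -/- with LPS). The LPS-treated Hdac3 -/- arrays were the lowest of the 12. That call was lost without any 1 of the LPS-treated arrays other than +/- LPS 1 (adjusted p between 0.0674 and 0.116). Eif4e3, an eIF4E-like protein gene, had differences of 0.24 and -0.49 with LPS in Hdac3 +/- and Hdac3 -/- cells (adjusted p = 0.296 and 0.0864 in limma), and the difference of its responses was -0.73 (adjusted p = 0.186 in limma).

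The genes of both measured eIF4E-binding proteins, the repressors released from eIF4E when mTORC1 phosphorylates them, followed different patterns. Eif4ebp2 fell with LPS in both genotypes, from 8.12, 8.14 and 8.04 to 7.16, 7.38 and 7.19 in Hdac3 +/- arrays and from 8.14, 8.11 and 8.38 to 7.31, 7.48 and 7.54 in Hdac3 -/- arrays. The groups did not overlap by treatment and overlapped by genotype. The differences were -0.86 ± 0.127 (adjusted p = 0.000247 in limma) and -0.76 ± 0.127 (adjusted p = 0.00165 in limma), and the difference between them was 0.10 (95% interval -0.29 to 0.48).

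Eif4ebp1 was higher in Hdac3 -/- cells. The Hdac3 +/- arrays were at 8.32, 8.52 and 8.23 before and 8.47, 8.52 and 8.15 after LPS, and the Hdac3 -/- arrays at 8.96, 8.89 and 8.74 before and 9.42, 9.48 and 9.48 after it. Every Hdac3 -/- array was above every Hdac3 +/- array. The genotype difference was 0.51 ± 0.137 untreated (adjusted p = 0.0716 in limma) and 1.08 ± 0.137 after LPS, a 2.11-fold higher signal (adjusted p = 0.000141 in limma). With LPS it rose by 0.60 in Hdac3 -/- cells (adjusted p = 0.0136 in limma, and 0.067 without -/- untreated 3), and its difference in Hdac3 +/- cells was 0.03. The difference of the responses, 0.57 ± 0.193, had adjusted p = 0.219 in limma. On Hdac3 +/- arrays Eif4enif1 was at 7.98, 7.72 and 8.07 before and 7.76, 7.75 and 7.70 after LPS, and on Hdac3 -/- arrays at 7.75, 8.0 and 7.59 and then 7.32, 7.28 and 7.32. Again the LPS-treated Hdac3 -/- arrays were the lowest. Eif4enif1, the nuclear transporter of eIF4E, was lower in Hdac3 -/- cells after LPS by 0.43 on the log2 scale (-0.43, adjusted p = 0.0449 in limma), and its other probe set gave -0.24 (adjusted p = 0.177 in limma). That call was lost without any of 8 arrays (adjusted p between 0.0557 and 0.118), and in 14 of 23 alternatives in all. Its fall of 0.47 with LPS in Hdac3 -/- cells (adjusted p = 0.0446 in limma) was lost without any of 7 arrays (adjusted p between 0.0569 and 0.18) and in 14 of 24 alternatives in all, quantile normalization (0.0785) and cyclic loess (0.127) among them.

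Eif5a, the hypusine-bearing factor that eases peptide bond formation on stalling stretches, was at 11.24, 11.05 and 11.31 before and 11.26, 10.25 and 10.60 after LPS on Hdac3 +/- arrays. It was at 11.69, 11.58 and 11.31 and then 11.74, 11.56 and 11.95 in Hdac3 -/- arrays. The LPS-treated Hdac3 +/- arrays were spread widely, with replicate 1 at the untreated level and replicates 2 and 3 below it. After LPS the genotypes differed by 1.05 ± 0.215 (adjusted p = 0.0048 in limma), whereas the other Eif5a probe set gave 0.33 (adjusted p = 0.163 in limma) and the mean of both 0.69. The sources used here do not say which of them represents the Eif5a message. By its identifier the other probe set falls among those of chromosome 11, where Eif5a lies. The brightest, which carries the call, does not. Eif5a2, its paralog, was higher by 0.48 (adjusted p = 0.0463 in limma), a call lost without any of 9 arrays (adjusted p between 0.053 and 0.165) and in 15 of 23 alternatives in all, quantile normalization (0.0941) and cyclic loess (0.158) among them. Eif6, which keeps the large ribosomal subunit from joining too early, rose with LPS. It was at 10.24, 10.43 and 9.85 without and 11.10, 10.40 and 10.62 with LPS in Hdac3 +/- arrays, which overlapped, and at 10.44, 10.20 and 10.20 and then 11.16, 11.07 and 11.22 in Hdac3 -/- arrays, which did not. The rise was 0.87 ± 0.185 in Hdac3 -/- cells (adjusted p = 0.0086 in limma). In Hdac3 +/- cells it was 0.54 (adjusted p = 0.0487 in limma), a call lost without any of 10 arrays (adjusted p between 0.0573 and 0.197) and in 16 of 24 alternatives in all, quantile normalization (0.108) and the absence of both arrays with Y-linked signal (0.182) among them. The subunit-joining GTPase gene Eif5b differed by -0.17 to 0.04 across the 4 comparisons of groups and passed the threshold in none.

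Among the elongation factors the genotype separated the paralogs of eEF1A, the GTPase that brings aminoacyl-tRNA to the ribosome. Eef1a2, the form usually found in muscle and nerve, was at 6.07, 6.03 and 5.73 before and 6.08, 6.17 and 6.00 after LPS on Hdac3 +/- arrays. On Hdac3 -/- arrays it was at 7.78, 7.74 and 6.80 before and 7.83, 7.41 and 7.88 after LPS. Every Hdac3 -/- array was above every Hdac3 +/- array, and -/- untreated 3 was the lowest of them. Eef1a2 was 2.82-fold higher in untreated Hdac3 -/- cells (log2 difference 1.49 ± 0.229, adjusted p = 0.00226 in limma) and 3.08-fold higher after LPS (1.62 ± 0.229, adjusted p = 0.000327 in limma). LPS differences were 0.14 and 0.27 (adjusted p = 0.667 and 0.615 in limma). The arrays of the common form, Eef1a1, were at 13.52, 13.49 and 13.44 (Hdac3 +/-), 13.47, 13.28 and 13.41 (Hdac3 +/- with LPS), 13.49, 13.40 and 13.52 (Hdac3 -/-) and 13.43, 13.41 and 13.51 (Hdac3 -/- with LPS). The groups overlapped in every comparison. Its genotype difference after LPS was 0.07 (95% interval -0.17 to 0.31) and its LPS difference in Hdac3 +/- cells -0.10 (95% interval -0.34 to 0.14). The exchange factor genes Eef1b2 and Eef1d passed the threshold in no comparison. Eef1e1, a component of the aminoacyl-tRNA synthetase complex, had LPS differences of 0.85 and 0.94 in Hdac3 +/- and Hdac3 -/- cells with adjusted p = 0.0807 and 0.112 in limma.

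Eef2k, the calcium- and calmodulin-dependent kinase that inactivates the translocation factor eEF2, was the only member whose LPS response passed the test of a difference between genotypes. Log2 signals in Hdac3 +/- arrays were 5.85, 6.19 and 6.22 before and 4.95, 4.81 and 4.89 after LPS. In Hdac3 -/- arrays it was 5.68, 5.70 and 5.82 without and 5.75, 5.24 and 5.57 with LPS. The LPS-treated Hdac3 +/- arrays lay below all others, and in Hdac3 -/- cells the treated and untreated arrays overlapped. Every untreated Hdac3 -/- array was below every untreated Hdac3 +/- array, with a difference of -0.36 (adjusted p = 0.324 in limma). Eef2k fell by 1.21 in Hdac3 +/- cells (SE 0.151, adjusted p = 6.48e-05 in limma), its difference in Hdac3 -/- cells was -0.21 (adjusted p = 0.525 in limma), and after LPS it was higher in Hdac3 -/- cells by 0.64 (adjusted p = 0.011 in limma, and 0.0601 without -/- LPS 1). With the mean of both Eef2k probe sets that last difference was 0.24 (adjusted p = 0.34 in limma).

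The difference of the Eef2k responses was 1.00 ± 0.214 (adjusted p = 0.042 in limma). This 1 call of 60, 1.67%, stands beside 1.08% of all genes. Its sign held with each array left out. The call held without +/- untreated 1, +/- LPS 1 or -/- LPS 2 and was lost without each of the other 9 arrays, with adjusted p between 0.0726 and 0.117. Untreated and LPS-treated Hdac3 +/- arrays of the same number deviated together, and with a block for the number within each genotype the adjusted p was 0.0514. It was 0.0523 with median centring and 0.142 with the mean of both Eef2k probe sets. The mean signal of Eef2k, 5.56, lay just below that of the median gene. A dimmer Eef2k probe set gave -0.68 with LPS in Hdac3 +/- cells (adjusted p = 0.0211 in limma) and 0.50 for the difference of responses (adjusted p = 0.534 in limma). Its genotype differences were -0.66 untreated (adjusted p = 0.107 in limma) and -0.16 after LPS (adjusted p = 0.639 in limma). Both probe sets thus fell with LPS in Hdac3 +/- cells and had differences below 0 between untreated genotypes. They differed in direction for the genotype after LPS. On Hdac3 +/- arrays Eef2 was at 11.80, 12.03 and 11.87 before and 11.70, 11.45 and 11.46 after LPS, and on Hdac3 -/- arrays at 12.01, 11.94 and 12.15 and then 11.86, 11.78 and 11.87. Treated arrays lay below untreated ones in both genotypes. The target, Eef2, fell by 0.36 with LPS in Hdac3 +/- cells (adjusted p = 0.0493 in limma), a call lost without any of 11 arrays (adjusted p between 0.0581 and 0.138), with the replicate block within genotype (0.0831), and in 17 of 24 alternatives in all. Its difference in Hdac3 -/- cells was -0.20 (adjusted p = 0.437 in limma).

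Of the 5 measured methyltransferases of elongation factors 3 fell with LPS in Hdac3 +/- cells. Beside them 15.5% of all genes and 28.3% of those at or above the median signal were lower. Eef1aknmt, which methylates eEF1A, was at 6.76, 7.04 and 6.42 without and 5.77, 5.45 and 5.15 with LPS in Hdac3 +/- arrays, and at 7.02, 6.65 and 7.36 and then 6.13, 5.77 and 6.22 in Hdac3 -/- arrays. Treated and untreated arrays did not overlap in either genotype. The differences were -1.29 ± 0.219 (adjusted p = 0.000727 in limma) and -0.97 ± 0.219 (adjusted p = 0.0122 in limma), the second with adjusted p = 0.0633 without -/- LPS 2 and 0.0626 without -/- untreated 3. Eef2kmt, which methylates eEF2, fell by 0.42 in Hdac3 +/- cells (adjusted p = 0.018 in limma) and was higher by 0.46 in Hdac3 -/- cells after LPS (adjusted p = 0.0179 in limma). Both calls were lost with another normalization. The LPS difference was -0.15 with quantile normalization (adjusted p = 0.435 in limma) and -0.19 with cyclic loess (0.249), and the genotype difference 0.27 (0.146) and 0.29 (0.107). The first was also lost without +/- untreated 2 (0.0629), on the arrays of the groups compared alone (0.086) and without both arrays with Y-linked signal (0.0602), and the other without -/- LPS 1 (0.0523), without -/- LPS 3 (0.0854) and on the groups compared alone (0.0508). The arrays of Eef1akmt1 were at 6.90, 6.97 and 7.65 (Hdac3 +/-), 6.93, 6.32 and 5.97 (Hdac3 +/- with LPS), 6.95, 6.81 and 7.05 (Hdac3 -/-) and 6.92, 6.46 and 7.31 (Hdac3 -/- with LPS). Eef1akmt1, another eEF1A methyltransferase, fell by 0.76 in Hdac3 +/- cells (adjusted p = 0.0494 in limma), with overlapping groups and a call lost without any of 7 arrays (adjusted p between 0.0557 and 0.205). It was also lost with quantile normalization (-0.54, adjusted p = 0.143 in limma) and cyclic loess (-0.52, 0.171), and was -1.16 without both arrays with Y-linked signal.

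Across roles 29 of the 60 genes passed the threshold in at least 1 of the 5 comparisons and 31 in none. That is 48.3%, beside 32.4% of all genes and 52.5% of those at or above the median signal. The genes Eef2k, Eef2kmt, Eif2ak3, Eif2ak4, Eif3a, Eif4a2 and Eif5 were lower with LPS in Hdac3 +/- cells and higher in Hdac3 -/- cells after LPS. These 7, or 11.7%, are called from comparisons that share the LPS-treated Hdac3 +/- arrays, and 5.04% of all genes and 9.33% of those at or above the median signal were called in the same way. The difference of LPS responses was above 0 for 53 of the 60 genes, beside 47.4% of all genes and 64.4% of those at or above the median signal. Its median was 0.23, beside -0.02 over all genes and 0.13 over genes at or above the median signal. Of the 60 genes 8 had an unadjusted p under 0.05.

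Other genes of the same pathways are read against the shares of all genes called. With LPS these were 15.5% lower and 9.59% higher in Hdac3 +/- cells and 5.18% lower and 3.69% higher in Hdac3 -/- cells. After LPS 9.69% were higher and 5.99% lower in Hdac3 -/- than in Hdac3 +/- cells. Among genes at or above the median signal the shares were larger. With LPS they were 28.3% lower and 11.7% higher in Hdac3 +/- cells and 9.82% lower and 6.61% higher in Hdac3 -/- cells. After LPS 17.7% of these brighter genes were higher and 9.19% lower in Hdac3 -/- cells. Over the 59 measured genes of 6 lists 19 fell and 4 rose with LPS in Hdac3 +/- cells, 8 fell and 3 rose in Hdac3 -/- cells, and 15 were higher and 2 lower in Hdac3 -/- cells after LPS. Of 12 measured genes of the integrated stress response, the program that follows phosphorylation of eIF2, 2 rose and 3 fell in Hdac3 +/- cells. Impact, an inhibitor of the kinase encoded by Eif2ak4, was at 8.58, 8.89 and 9.05 without and 7.91, 6.98 and 7.53 with LPS in Hdac3 +/- arrays and between 8.66 and 9.36 on all Hdac3 -/- arrays. It fell by 1.36 in Hdac3 +/- cells (adjusted p = 0.000392 in limma), and its response differed between genotypes by 1.67 ± 0.303 (adjusted p = 0.0168 in limma). Nupr1 rose by 1.65 and Ppp1r15b, a subunit of the eIF2 phosphatase, by 1.45 in Hdac3 +/- cells, and both were lower in Hdac3 -/- cells after LPS, with differences of -0.85 and -0.70. In Hdac3 -/- cells 2 genes of this list rose with LPS and 2 fell.

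Of 14 measured genes of mTORC1 and Mnk control, which governs eIF4E, 8 fell and 1 rose with LPS in Hdac3 +/- cells, and 4 fell and 0 rose in Hdac3 -/- cells. Pdcd4, an inhibitor of the eIF4A helicase, fell by 3.06 and 2.01 in Hdac3 +/- and Hdac3 -/- cells, and Mknk2, an eIF4E kinase, by 2.30 and 1.48. Larp1, a repressor of the mRNAs of the translation machinery, rose by 1.52 in Hdac3 +/- cells. After LPS 3 of the 14 were higher in Hdac3 -/- cells, Mknk2 by 1.00, Mlst8 by 0.82 and Akt1s1 by 0.61, and 0 were lower.

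Of 10 mitochondrial translation factor genes 4 fell with LPS in Hdac3 +/- cells, Guf1 by 1.41 and Mtif2 by 1.07 among them. In Hdac3 -/- cells 2 of the 10 fell, Guf1 by 0.67 and Mtrf1l by 0.57. After LPS 5 were higher in Hdac3 -/- cells, led by Guf1 (1.09) and Mrrf (1.03). Of 8 measured genes for the hypusine and diphthamide modifications of eIF5A and eEF2 1 fell with LPS in Hdac3 +/- cells, and 4 were higher in Hdac3 -/- cells after LPS, among them Dohh, the last enzyme of hypusine synthesis, by 1.08. Of 9 termination and recycling genes 1 rose with LPS in each genotype, the recycling factor Denr by 1.36 and 1.37. Of 6 measured genes of poly(A)-binding proteins and their partners 3 fell with LPS in Hdac3 +/- cells and 1, Larp4, was higher in Hdac3 -/- cells after LPS by 0.72. Untreated genotypes differed in 0 of the 59 genes of these 6 lists in limma, and 5 had an unadjusted p under 0.05.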

How the data were processed

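RNA from 12 arrays in 4 groups was analysed. The authors deposited log2 signals per probe set, which the submitters' processing notes credit to RMA and the affy package, with versions, settings, chip description and genome build not given in the sources used here. No array was left out. The table held 28193 probe sets, of which the platform annotation gave 21648 a single symbol, 1313 several and 5232 none; the last 2 kinds were not tested. For 954 genes with more than 1 probe set the brightest was used, which gave 19945 genes. All 60 members matched a RefSeq gene table (GRCm38.p6), used for names and gene order, and 47 matched its promoter sequences.

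Group means were fitted to the 12 arrays with limma 3.58.1 in R 4.3.3 (eBayes without a trend), and p-values of each of 5 contrasts were adjusted over all genes (Benjamini-Hochberg, threshold 0.05). Tables and figures used Python 3.11.15, pandas 2.3.3, numpy 2.4.6 and matplotlib 3.10.9. The fit was tested on simulated data. The members, roles and gene lists were chosen with earlier results of these data known. Genes given with every array were up to 8 per direction and contrast by size of change, and the regulated steps of initiation and elongation; further array values, as for Impact, and further genes were chosen after their values were seen. Deviations from group means were correlated between same-numbered arrays. All 3 pairs of untreated and LPS-treated Hdac3 +/- arrays exceeded 0.1 (0.223 to 0.327), and replicate 1 of both carried Y-linked signal, so the numbers were taken to pair these arrays. Between these 2 groups differently numbered arrays lay between -0.30 and 0.11. Over all groups 6 of 18 same-numbered pairs exceeded 0.1, and so did 13 of 36 differently numbered pairs, up to 0.51. The cut of 0.1 alone thus does not show pairing, and elsewhere the numbers were not taken to pair. Alternatives changed the normalization, probe filter, probe set rule, array weights, arrays fitted and the replicate block, and left out each array in turn.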

Additional observations from a re-analysis of the deposited data

Results flagged for a closer look

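The LPS response of Eef2k passed a direct test of a difference between the genotypes in the fit without a replicate block. The adjusted p in limma was 0.0514 with a block within genotype and 0.0691 with a block over all groups. Its log2 change was -1.21 in Hdac3 +/- and -0.21 in Hdac3 -/- cells, and the difference of 1.00 ± 0.214 had adjusted p = 0.042 in limma, with 3 arrays a group. Untreated genotypes differed by -0.36 (adjusted p = 0.324 in limma), which enters this difference. The 3 LPS-treated Hdac3 +/- arrays were the lowest of the 12. The call was lost in 13 of 22 alternatives, among them 9 that left out 1 array and both replicate blocks, with adjusted p between 0.0143 and 0.142 over the 22, and a dimmer Eef2k probe set gave 0.50 with adjusted p = 0.534.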

How the results depend on the processing

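Of 44 calls of single genes 17 held under every alternative in which they were tested, 27 were lost under at least 1 and 0 reversed. The 17 were those of Eif2ak3 (3 comparisons), Eif4ebp2, Eif2ak4, Eif4a2 and Eef1a2 (2 each), Eef1aknmt, Eef2k and Eif4b with LPS in Hdac3 +/- cells, Eif6 with LPS in Hdac3 -/- cells, and Eif4ebp1 and Eif5a between genotypes after LPS. The other Eif5a probe set by itself did not pass there (adjusted p = 0.163 in limma). With only the arrays of the groups compared, 8 genes changed with LPS in Hdac3 +/- and 10 in Hdac3 -/- cells. Array weights gave 13 genes with LPS in Hdac3 -/- cells, 3 between untreated genotypes and 3 for the difference of responses, and quantile normalization gave 2 between untreated genotypes. For the difference of responses median centring, leaving out genes under the median signal and averaging the probe sets of a symbol each gave 0 calls in limma, with 6, 7 and 8 genes at an unadjusted p under 0.05; the second leaves out Eef2k itself, which lies below that median. Leaving out 1 array at a time gave 8 to 16 genes with LPS in Hdac3 +/- cells, 4 to 7 in Hdac3 -/- cells, 1 between untreated genotypes, 7 to 23 after LPS and 0 to 3 for the difference of responses. Alternatives that were not named here moved no count by more than 1.5 times. Leaving out both Hdac3 +/- arrays of replicate 1 was added after seeing the data.

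The replicate numbers were taken to pair untreated and LPS-treated Hdac3 +/- arrays and no others. With the replicate number as a block, 15, 5, 1, 17 and 0 genes were called in the order of comparisons above, and with a block within each genotype 16 and 7 with LPS and 0 for the difference of responses. The block within genotype ended 1 call with LPS in Hdac3 +/- cells, that of Eef2. Under both blocks 8 genes had an unadjusted p under 0.05 for that difference. The interaction uses all 4 groups, so that a fit on the groups compared was not run separately for it. With 3 arrays a group small differences cannot be resolved, and low signal limits the 5 genes below the median.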

Other observations

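Genes next to Eef1a2 along the chromosome were taken in the order of the RefSeq table. Ppdpf, the adjacent measured gene on one side, was higher in Hdac3 -/- cells by 0.45 untreated and 0.36 after LPS, with adjusted p = 0.0627 and 0.0558 in limma. Helz2, an interferon-induced helicase gene 5 genes away, was lower in Hdac3 -/- cells, with differences of -0.90 untreated (adjusted p = 0.0196 in limma) and -1.32 after LPS (adjusted p = 0.000391 in limma). The other measured genes within 5 places on either side passed the threshold in neither comparison.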
